A study of Mus musculus with 21 samples.

Results

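Cholesterol handling by microglia, the resident macrophages of the brain, was described through 34 genes: 18 of the synthesis pathway, 8 that regulate it, and 8 that carry, store or export sterol. The genes were taken by symbol, from a list chosen with earlier results of these data known. All 34 were found among the 18079 genes of a genotype table and 33 among the 13297 genes of an injection table, in which Nr1h3 had no row. The genotype table set 4 libraries of microglia from uninjected ApoE KO females (strain B6.129P2-Apoetm1Unc/J, in which the Apoe gene is disrupted in every cell) against 7 libraries from wild-type C57BL/6 females (WT). The injection table held males of the same knockout strain, so that both of its groups lacked Apoe: 5 libraries after recombinant APOE protein dissolved in phosphate-buffered saline (rAPOE) and 5 after the saline alone (PBS). Mice were 12 to 18 weeks old; the injection went into the left hemisphere, microglia were collected 16 h later from both hemispheres, and the hemisphere behind a library is not labelled. The labels do not say whether each library is from a mouse of its own; p-values therefore measure only how far these libraries spread, and that spread may be technical.

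Cells obtain cholesterol either by building it from acetyl-CoA through mevalonate, squalene and lanosterol, or by taking up lipoproteins. When membrane sterol is low, the escort protein SCAP carries the SREBP transcription factors to the Golgi, where they are cut and then switch on the synthesis genes; INSIG proteins hold SCAP back when sterol is plentiful. Surplus sterol yields oxysterols that activate the LXR receptors, which switch on the export pumps ABCA1 and ABCG1, and in the brain ApoE is a main acceptor of the exported lipid.

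Values are normalised counts of 3′ tags, that is, reads divided by a factor for each library. Differences are on the log2(normalised count + 1) scale, the first-named group minus the second, with the standard error (SE) of limma's fit, and genes were called at 0.05 after Benjamini-Hochberg adjustment of p over all genes with a mean of at least 10 in the table. ApoE KO libraries held 4247865 to 4969287 reads over 8117 to 10479 detected genes, and WT libraries 2016972 to 3054976 reads over 13592 to 15248 genes; rAPOE and PBS libraries held 704225 to 1347501 reads. The Apoe transcript was at 0 to 23.1 in ApoE KO libraries, at 13195 to 17163 in 6 WT libraries and at 1011 in WT library 8. That library stood apart from the other WT libraries in further respects. It held 4.67% mitochondrial ribosomal RNA, against 1.36% to 1.59% in the others, and 0 Y-linked reads with Xist, a transcript of the inactive X chromosome, at 3291. The other 6 WT libraries, labelled female, held Xist at 1127 to 1279 beside Y-linked reads, 11 to 36 of them, and ApoE KO libraries held 0 and Xist at 1980 to 3292. In the injection table, library 5 of each group held Xist and no Y-linked reads although labelled male. Results on the members are given with and without these libraries where a call changes. Once WT library 8 is left out, every WT library holds Y-linked reads and every ApoE KO library holds 0. Sex content then runs with genotype, and its part in the differences was not tested. The share of mitochondrial ribosomal RNA also moved with genotype, at 0.647% to 0.886% in ApoE KO libraries, below every WT library, and its part in the differences was not tested. In the injection table it was 11.6% to 20.1% in rAPOE and 10.8% to 16.5% in PBS; libraries 4 and 5 of both groups stood apart from libraries 1 to 3, with 10025 to 11342 genes detected against 7601 to 8837, and 10.8% to 11.8% of this RNA against 12.6% to 20.1%.

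ApoE KO microglia had lower transcript levels of part of the synthesis pathway and of its regulators Srebf2 and Insig1, and higher levels of the export pumps Abca1 and Abcg1 and of the lysosomal genes Npc1 and Lipa. Of the 30 members that reached the mean of 10 in the genotype table, 4 were higher and 8 lower in ApoE KO microglia. Over all 10401 genes tested, 25% passed, 5.14% being higher (535 genes) and 19.8% lower (2061 genes) in ApoE KO; after quantile rescaling, which moved the median of all genes from -0.45 to 0.09, the split was 920 higher and 1027 lower. Idi1, Lss, Tm7sf2 and Nr1h3 stayed under the filter. Because a gene can pass it through WT alone, the counts cover the tested members and not all 34. Every ApoE KO library lay above every WT library for 3 members and below every WT library for 3, a pattern held by 3.67% and 10.6% of all genes tested, while the groups overlapped for 24 members. Among the 30, 2, 5, 9 and 2 members were listed at 0 in ApoE KO libraries 1 to 4, where 15.1%, 13.4%, 27.3% and 11.4% of all tested genes were at 0; no member was at 0 in a WT library.

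**Figure D1:**
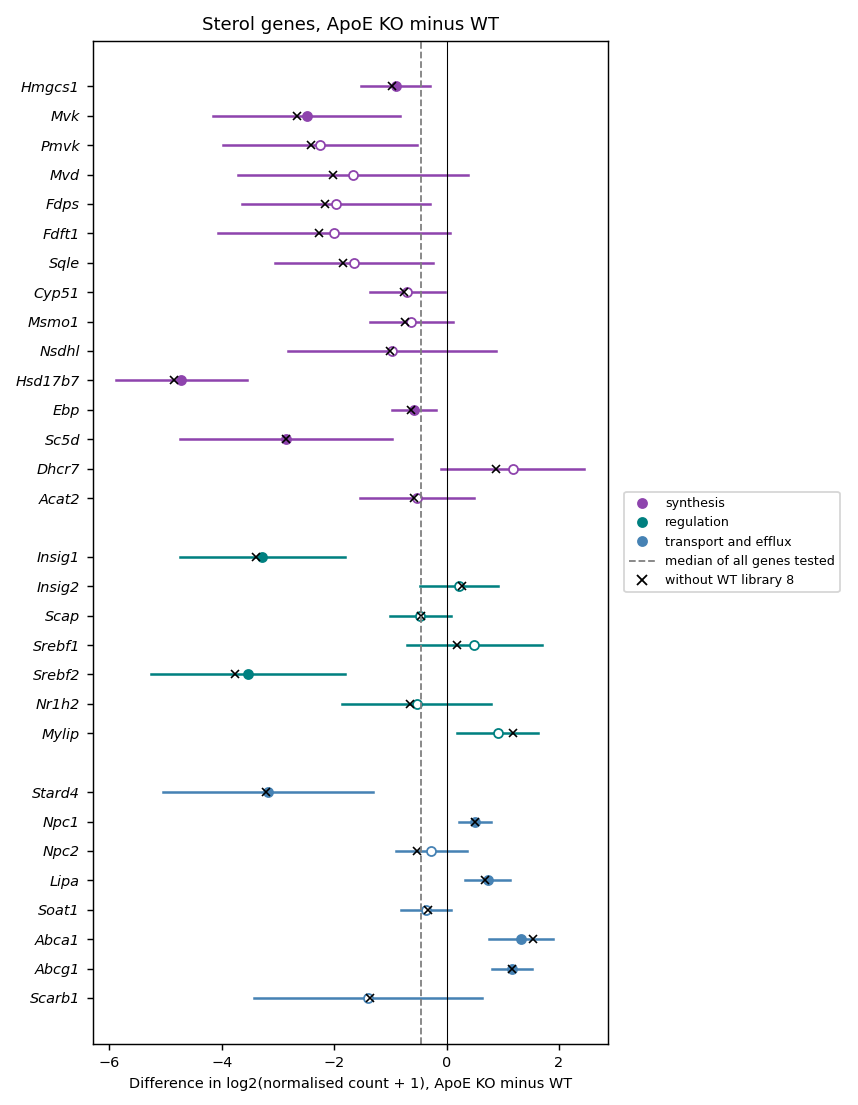
Difference in log2(normalised count + 1), ApoE KO (n = 4) minus WT (n = 7), for the 30 tested members by role; bars are 95% confidence intervals, filled circles passed at an adjusted p under 0.05, crosses are the fit without WT library 8 and the dashed line is the median of all genes tested, -0.45. Of the 15 synthesis genes 14 lie left of 0, whereas Abca1, Abcg1, Npc1 and Lipa lie to its right with intervals clear of 0.

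Transcripts of other cell types differed between the genotypes as well. The 6 choroid plexus and ependymal markers summed to 429 to 872 in ApoE KO libraries, with Folr1 and Sostdc1 at 0, and to 23525 to 83031 in WT libraries. Neuronal markers summed to 0 to 51.2 in ApoE KO, with Map2 and Rbfox3 at 0 in each of its libraries, and to 27.1 to 715 in WT. For astrocyte markers the sums were 511 to 1008 in ApoE KO and 863 to 1615 in WT, and for oligodendrocyte markers 92.5 to 282 in ApoE KO and 193 to 640.3 in WT. Endothelial markers summed to 115 to 209.2 in ApoE KO and 209.4 to 362 in WT. Monocyte and serosal macrophage markers summed to 587 to 756 in ApoE KO and 238 to 7680 in WT, the lowest being WT library 8. T cell markers summed to 0 to 5.79 in ApoE KO and 0 to 37.4 in WT, and neutrophil markers to 1340.4 to 4928 in ApoE KO and 132 to 2191 in WT. The 6 microglial markers were high in every library, at 60981 to 71371 in ApoE KO and 44051 to 59207 in WT. In such bulk samples fewer cells of a type and less RNA per cell cannot be told apart. The part that these other cell types have in the differences of sterol genes was not tested.

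Among the 15 synthesis genes tested, 5 were lower in ApoE KO microglia and 0 higher, beside 19.8% and 5.14% of all genes tested. Genes such as Hsd17b7 and Mvk reached the filter through WT, the group in which they are high, so the filter itself leans towards lower calls and the count is a description. With no filter 6 of all 18 were lower and 0 higher, where 3191 of the 18079 genes were lower. At a mean of at least 50, with 4 tested, 2 were lower (Hmgcs1 and Ebp) and 0 higher. Over all genes that reached that mean, 801 were lower and 488 higher. These are fewer genes than in the main fit, and the share is not given. The median difference of the 15 was -1.65, beside -0.45 for all genes tested, and 14 of them were below 0. Its size depended on the setting. It was -1.39 beside -0.66 with no filter, -1.05 beside -0.29 without ApoE KO library 3, -0.78 beside -0.19 with DESeq2, -0.75 beside -0.17 with edgeR, -0.67 beside -0.14 at a mean of at least 50 and -0.54 beside 0.09 after quantile rescaling. Against WT library 8 alone it was -0.49 beside -0.49. Summed over the 18 synthesis genes, normalised counts came to 760.0, 707, 891 and 721 in ApoE KO libraries 1 to 4, against 865, 1317 and 1519 in WT (lowest, median and highest). The lowest WT sum belonged to library 8 and lay below that of ApoE KO library 3, the single overlap between the groups. WT library 8 was below all other WT libraries for 12 of the 15 genes, where 36.4% of all genes were.

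The early steps lead from acetyl-CoA to squalene. Hmgcs1, an enzyme of the mevalonate branch (chromosome 13, 119690379 to 119708260, plus strand, GRCm38), had 66.4, 204, 239.9 and 134 normalised counts in ApoE KO libraries 1 to 4. In WT it had 209, 292 and 305 (lowest, median and highest). The ApoE KO values were low in libraries 1 and 4, library 3 reached into the WT range, and the groups overlapped through that library and WT library 8. The difference was -0.91 (SE 0.28, adjusted p = 0.0301, limma). This call was lost when any of WT libraries 1 to 4 or ApoE KO libraries 1 or 4 was left out (adjusted p 0.0541 to 0.075, limma), and with edgeR's quasi-likelihood test (adjusted p = 0.0851). Mvk, the kinase of mevalonate (chromosome 5, 114444269 to 114460591, plus strand), had 11.4, 0, 3.03 and 12.0 in ApoE KO libraries and 11.6, 39.3 and 52.9 in WT. All ApoE KO values stood at or under the low end of WT, with an overlap at about 12. Its difference was -2.49 (SE 0.77, adjusted p = 0.0296, limma), and the call ended without WT library 1, 2, 3 or 7 or ApoE KO library 2 (adjusted p 0.0593 to 0.0774, limma), after quantile rescaling (difference -0.60, adjusted p = 0.596) and with edgeR (adjusted p = 0.148).

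Hmgcs1 was the one member whose promoter window held the SREBP motif TCACNCCAC, searched on both strands. The window runs from 250 bases before to 50 after the start in RefSeq (GRCm38.p6, chr13:119690101-119690400, plus strand) and is printed below with the motif in capitals, at bases 114 to 122, 137 bases before the start; it overlaps no CCAAT box.
Hmgcs1: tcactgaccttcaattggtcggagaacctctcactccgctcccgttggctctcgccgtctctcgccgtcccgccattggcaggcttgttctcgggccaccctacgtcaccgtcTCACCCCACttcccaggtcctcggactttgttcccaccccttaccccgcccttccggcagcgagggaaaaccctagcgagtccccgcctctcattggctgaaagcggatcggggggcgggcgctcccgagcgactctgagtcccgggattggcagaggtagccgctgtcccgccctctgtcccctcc
Windows were matched for 27 of the 34 members, 36 in all, so that 2.78% of member windows held the SREBP motif, beside 1.24% of the 32851 windows of all genes. The short CCAAT box, whose binding factor is a known partner of SREBP, stood on either strand in 23 of the 36 member windows (63.9%), belonging to 22 members, beside 37.4% of all windows. A match is a run of letters, not evidence that a factor binds.

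Pmvk, the next kinase of the mevalonate branch, did not pass. It had 36.9, 13.4, 0 and 19.9 in ApoE KO and 23.5, 50.4 and 80.8 in WT, a difference of -2.25 (SE 0.80, adjusted p = 0.0543, limma). It was called lower without WT library 8, ApoE KO library 1 or ApoE KO library 4 (adjusted p 0.0208 to 0.0478). Fdps, which makes farnesyl pyrophosphate, had 10.2, 19.1, 0 and 8.42 in ApoE KO and 10.8, 32.4 and 41.0 in WT (difference -1.97, SE 0.78, adjusted p = 0.0815, limma), and passed without ApoE KO library 2 (adjusted p = 0.0373). The last 300 bases of Fdps overlap exons of Gm43738 on the same strand, so its tags are uncertain. Sqle, the epoxidase that starts the sterol-specific steps, had 19.3, 22.7, 1.73 and 5.76 in ApoE KO and 12.6, 30.0 and 51.9 in WT (difference -1.65, SE 0.66, adjusted p = 0.0828, limma), and passed without WT library 8, ApoE KO library 1 or ApoE KO library 2 (adjusted p 0.0366 to 0.0486). In each of these genes ApoE KO library 3 held the lowest value and the groups overlapped. Mvd and Fdft1, which make isopentenyl pyrophosphate and squalene, did not pass either, with differences of -1.66 (adjusted p = 0.224, limma) and -2.01 (adjusted p = 0.146). Without ApoE KO library 3, Fdft1 passed as lower (adjusted p = 0.0355); its 3′ end overlaps exons of Ctsb on the opposite strand, and the strand setting of the counting is not stated. Idi1, the isomerase of isopentenyl pyrophosphate, had 0 reads in all ApoE KO libraries and 3 in all of WT, too few for any comparison.

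The late steps turn lanosterol into cholesterol. Hsd17b7, which reduces sterol ketones in this part of the pathway (chromosome 1, 169949535 to 169969241, minus strand), had 0 reads in every ApoE KO library, against 14.4, 33.5 and 38.6 normalised counts (181 reads) in WT. The groups did not overlap, and with 3 reads over the ApoE KO group as the floor the mean was at least 76.5-fold lower than in WT. The fitted difference of -4.72 (SE 0.54, adjusted p = 2.6e-05, limma) depends on the added 1. The call held in each fit with 1 library left out and failed after quantile rescaling (difference -1.72, adjusted p = 0.0557). Ebp, the sterol isomerase (chromosome X, 8185329 to 8193512, minus strand), had 187, 229, 228 and 158 in ApoE KO and 244, 288 and 413 in WT. Every ApoE KO library lay below every WT library. The difference was -0.58 (SE 0.18, adjusted p = 0.0307, limma), close to the median of all genes; the call ended without WT library 1, 3 or 6 or ApoE KO library 1 or 4 (adjusted p 0.0586 to 0.0881, limma), after quantile rescaling (adjusted p = 0.0708), with array weights (adjusted p = 0.0588) and with edgeR (adjusted p = 0.0523).

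Sc5d, the desaturase that follows Ebp (chromosome 9, 42251595 to 42264256, minus strand), had 67.5, 2.67, 0 and 19.9 in ApoE KO libraries 1 to 4 and 36, 71.0 and 77.5 in WT. Library 1 of ApoE KO was as high as WT, and the other 3 were below all WT libraries. The difference was -2.86 (SE 0.88, adjusted p = 0.0283, limma). It was no longer called without WT library 1, 2, 6 or 7 or ApoE KO library 2 or 3 (adjusted p 0.0526 to 0.0756, limma), with edgeR (difference -1.45, adjusted p = 0.355) or with DESeq2 (difference -1.48, adjusted p = 0.247). Dhcr7, the reductase of the last step to cholesterol, was the only synthesis gene with a difference above 0. It had 48.2, 42.3, 32.8 and 27.0 in ApoE KO and 3.61, 16.9 and 35.5 in WT, a difference of 1.18 that did not pass (SE 0.59, adjusted p = 0.168, limma) but did so after quantile rescaling (difference 2.34, adjusted p = 0.0143). Cyp51, Msmo1 and Nsdhl, which remove methyl groups from lanosterol, and Acat2, which makes acetoacetyl-CoA, had differences between -0.97 and -0.53 with adjusted p from 0.117 to 0.444 (limma). Cyp51 alone of these passed when a library was left out, ApoE KO library 1 (difference -1.06, adjusted p = 0.011), and Nsdhl changed sign without ApoE KO library 2 (difference 0.27) and after quantile rescaling (0.35), as Acat2 did after that rescaling (0.17). The 3′ end of Cyp51 overlaps exons of Akap9 on the other strand. Under the filter, Lss, which closes the sterol ring, had 0, 0, 0 and 8.42 in ApoE KO and 5.39, 10.9 and 16.3 in WT, and Tm7sf2, a sterol reductase, had 0 to 9.31 in ApoE KO and 1.21 to 11.6 in WT.

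**Figure D2:**
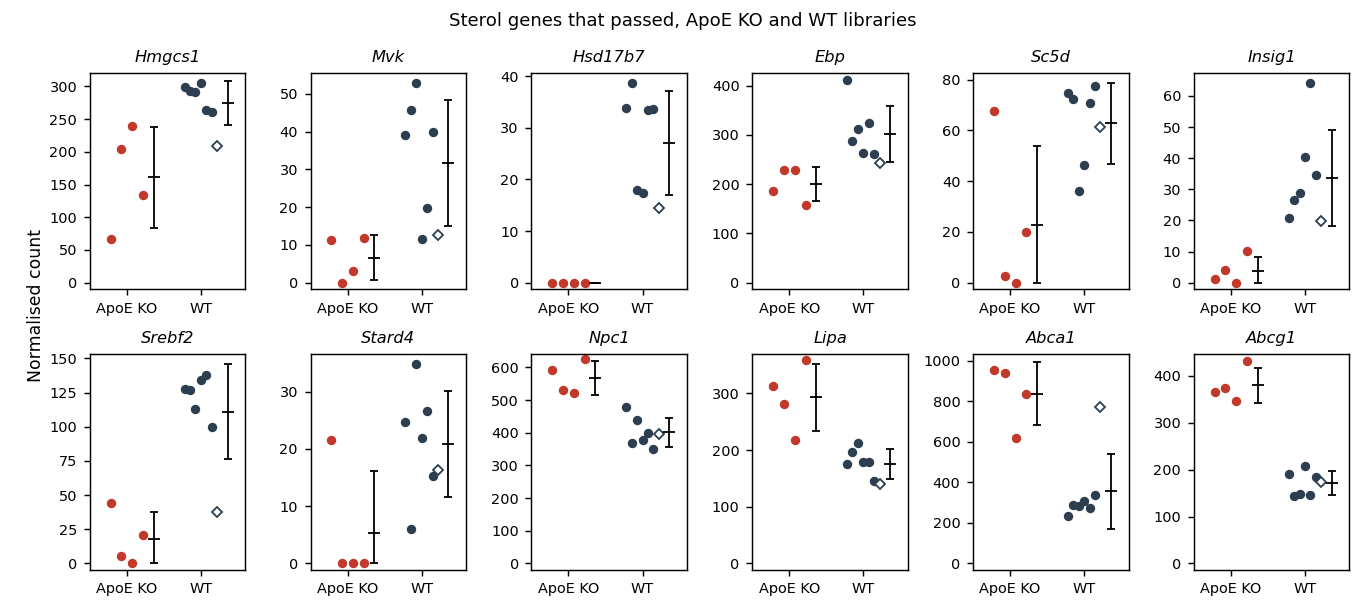
Normalised count in each library for the 12 members that passed, ApoE KO (n = 4, red) left of WT (n = 7, dark), with the mean and SD beside each group, the lower bar ending at 0 where it would go under it; the open diamond is WT library 8, and each panel has its own linear axis from 0. Hsd17b7 is at 0 in all 4 ApoE KO libraries, Abcg1 at 345 to 432 in ApoE KO and 144 to 208 in WT, and for Abca1 WT library 8, at 771, lies among the ApoE KO libraries.

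Among the regulators, 2 of the 7 tested were lower in ApoE KO and 0 were higher, beside 19.8% and 5.14% of all genes tested. The median difference was -0.47, beside -0.45 for all genes tested. Insig1, a brake on SREBP whose own gene SREBP switches on (chromosome 5, 28071363 to 28078662, plus strand), had 1.14, 4.01, 0 and 10.2 in ApoE KO libraries 1 to 4, against 19.9, 28.8 and 64.1 in WT. Every ApoE KO library was below every WT library. The mean was 3.83 ± 4.56 in ApoE KO (SD, n = 4) and 33.6 ± 15.3 in WT (SD, n = 7), and the difference -3.28 (SE 0.68, adjusted p = 0.003, limma). The ApoE KO values rest on 34 reads in all. The call held with each library left out and with edgeR (adjusted p = 0.0444), and failed after quantile rescaling (difference -1.22, adjusted p = 0.142).

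Srebf2 encodes SREBP2, the main activator of the cholesterol synthesis genes (chromosome 15, 82147181 to 82205379, plus strand). It had 44.3, 5.79, 0 and 20.8 in ApoE KO libraries and 37.9, 127 and 138 in WT. The lowest WT value was that of library 8, below ApoE KO library 1, and the other WT libraries were all above 99. The difference was -3.53 (SE 0.80, adjusted p = 0.00511, limma), with adjusted p from 0.00131 to 0.0154 over the fits with 1 library left out, and the call was also made by edgeR (adjusted p = 0.0443), by DESeq2 (adjusted p = 0.00315) and after quantile rescaling (adjusted p = 0.00185). Compared with WT library 8 alone, the library that matches its female label, the difference was -2.10 and did not pass (adjusted p = 0.85). Srebf1, the relative that chiefly drives fatty acid synthesis, did not pass: it had 46.0, 18.7, 85.6 and 81.6 in ApoE KO and 9.03, 44.6 and 57.2 in WT, a difference of 0.49 (SE 0.56, 95% interval -0.70 to 1.69, adjusted p = 0.546, limma). The 3′ end of Srebf1 overlaps exons of Rai1 on the opposite strand.

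Mylip encodes IDOL, an LXR-induced ubiquitin ligase (chromosome 13, 45389742 to 45412022, plus strand). It had 682, 547, 502 and 707 in ApoE KO libraries, against 202, 280.0 and 1025 in WT. The highest WT value was that of library 8, above all ApoE KO libraries; the other 6 WT libraries ended at 304, below all of them. With all libraries the difference was 0.91 and missed the threshold (SE 0.34, adjusted p = 0.064, limma). Without WT library 8 it was 1.19 and passed (adjusted p = 3.91e-05, limma), and against that library alone it was -0.76. Quantile rescaling also gave a call (adjusted p = 0.0443, limma). Array weights gave one too (adjusted p = 0.0012, limma), but they largely set WT library 8 aside. Its weight was 0.21, beside 1.97 to 3.12 for the other WT libraries. Scap, the SREBP escort, had 82.3, 65, 117 and 131 in ApoE KO and 88.1, 135 and 171 in WT, overlapping (difference -0.47, SE 0.25, adjusted p = 0.201, limma). Insig2 and the LXR gene Nr1h2 did not pass, with differences of 0.21 (95% interval -0.48 to 0.91, adjusted p = 0.655, limma) and -0.53 (95% interval -1.86 to 0.80, adjusted p = 0.558); Insig2 changed sign without ApoE KO library 3 (-0.041) and Nr1h2 without ApoE KO library 1 (0.33). Nr1h2 has an annotated pseudogene, Nr1h2-ps, and how tags common to both were counted is not given. Nr1h3, the other LXR gene, stayed under the filter with 0 reads in all ApoE KO libraries and 3.60, 4.63 and 12.8 normalised counts (41 reads) in WT.

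Transport and efflux genes held all 4 of the members that were higher in ApoE KO, out of 8 tested, and 1 that was lower, beside 5.14% and 19.8% of all genes tested. Their median difference was 0.11, beside -0.45 for all genes; after quantile rescaling it was 0.14 beside 0.09. Abca1, the pump that loads cholesterol and phospholipid onto lipid-poor apolipoproteins (chromosome 4, 53030787 to 53159895, minus strand), had 956, 938, 618 and 835 in ApoE KO libraries 1 to 4, against 233, 286 and 771 in WT. Again the highest WT value was library 8, which lay within the ApoE KO range, while the other 6 WT libraries ended at 339 and did not overlap with ApoE KO. The mean was 837 ± 155 in ApoE KO (SD, n = 4) and 356 ± 186 in WT (SD, n = 7), a ratio of 2.35, and the difference was 1.32 (SE 0.27, adjusted p = 0.00249, limma). It was called in every fit with 1 library left out, by edgeR (adjusted p = 0.00843) and by DESeq2 (adjusted p = 0.000795). Against WT library 8 alone the difference was 0.10 (adjusted p = 0.932).

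Abcg1, which exports cholesterol to already lipidated particles (chromosome 17, 31057675 to 31117988, plus strand), had 366, 374, 345 and 432 in ApoE KO libraries, against 144, 173 and 208 in WT. The groups did not overlap, and WT library 8, at 173, stood in the middle of the WT range. The mean was 379 ± 37.0 in ApoE KO (SD, n = 4) and 171 ± 25.4 in WT (SD, n = 7), a ratio of 2.22. The difference was 1.16 (SE 0.17, adjusted p = 0.000156, limma), it passed in every alternative run, and against WT library 8 alone it was 1.12 (adjusted p = 0.0384). For Hsd17b7 the difference in that comparison was -3.95, but its 4 ApoE KO libraries are all at 0, so the fit has no spread to set it against.

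LXR binds direct repeats spaced by 4 bases, and a form made of GGTNA, 5 bases of any kind and GGTNA again, chosen with the values known and searched on both strands, stood in the promoter windows of Abca1 and Srebf1 alone among the members (2 of 36 windows, 5.56%, beside 0.718% of all 32851). Both are shown from RefSeq (GRCm38.p6, each 5′ to 3′ on the gene's own minus strand) because one gene passed and the other did not; capitals mark the match, which in both reads on the opposite strand of the gene. In Abca1 (chr4:53159846-53160145) it covers bases 184 to 198, starting 67 bases before the start, and in Srebf1 (chr11:60210422-60210721) bases 69 to 83, starting 182 bases before it. Neither overlaps a CCAAT box.
Abca1: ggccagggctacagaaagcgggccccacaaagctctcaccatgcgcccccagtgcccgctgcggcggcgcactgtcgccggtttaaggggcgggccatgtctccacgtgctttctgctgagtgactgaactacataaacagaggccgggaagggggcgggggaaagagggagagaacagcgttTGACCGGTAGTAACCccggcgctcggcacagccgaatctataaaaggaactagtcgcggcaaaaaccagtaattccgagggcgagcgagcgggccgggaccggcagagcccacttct
Srebf1: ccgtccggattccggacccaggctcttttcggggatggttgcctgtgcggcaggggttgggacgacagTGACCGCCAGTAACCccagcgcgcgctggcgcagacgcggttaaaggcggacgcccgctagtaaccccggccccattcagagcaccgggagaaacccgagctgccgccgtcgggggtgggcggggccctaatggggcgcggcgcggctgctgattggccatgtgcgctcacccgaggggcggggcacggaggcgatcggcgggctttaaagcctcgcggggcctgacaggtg

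In the lysosome, lipoprotein cholesterol is freed by the lipase Lipa and moved out by Npc2 and then by the membrane protein Npc1. Npc1 had 594, 529, 521 and 627 in ApoE KO libraries, against 351, 395 and 479 in WT, with no overlap (difference 0.50, SE 0.13, adjusted p = 0.0127, limma). It kept its call in every fit with 1 library left out and lost it with array weights (adjusted p = 0.0615); its 3′ end overlaps exons of Rmc1 on the opposite strand. Lipa (chromosome 19, 34492318 to 34527474, minus strand) had 313, 282, 218 and 359 in ApoE KO, against 141, 178 and 213 in WT. Here too every ApoE KO library was above every WT library, by a narrow margin in library 3 (difference 0.73, SE 0.19, adjusted p = 0.0106, limma), and the call held in every fit with 1 library left out. Npc2 did not pass with all libraries. It had 3991, 3189, 3191 and 3195 in ApoE KO, against 1426, 4847 and 5229 in WT, where the lowest value was library 8 and the other 6 were all above ApoE KO. With all libraries the difference was -0.27 (SE 0.29, adjusted p = 0.524, limma), without WT library 8 it was -0.52 and passed as lower (adjusted p = 0.000153), and against that library alone it was 1.24 and passed as higher (adjusted p = 0.0428).

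Stard4, a carrier of sterol through the cytosol and a known SREBP target, was the one transport gene called lower. It had 21.6, 0, 0 and 0 in ApoE KO libraries 1 to 4, against 6.03, 22 and 34.8 in WT. All 38 ApoE KO reads came from library 1, which lay in the middle of the WT range. The difference was -3.18 (SE 0.87, adjusted p = 0.0156, limma); the call held with each library left out, and failed with edgeR (difference -1.92, adjusted p = 0.415), with DESeq2 (difference -1.96, adjusted p = 0.319) and after quantile rescaling (difference -0.53, adjusted p = 0.624). Soat1, which esterifies cholesterol for storage, had 247, 171, 346 and 216 in ApoE KO and 210.1, 305 and 367 in WT, overlapping (difference -0.37, SE 0.21, adjusted p = 0.217, limma). Scarb1, a receptor that exchanges cholesterol with lipoproteins, had 93.1, 39.2, 0 and 80.7 in ApoE KO and 48.6, 55.1 and 81.7 in WT (difference -1.40, SE 0.95, adjusted p = 0.299, limma), and changed sign without ApoE KO library 3 (0.11).

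The counts by role shifted with the WT libraries used. Without WT library 8, 7 synthesis genes were lower (Pmvk and Sqle besides the 5 above), 2 regulators were lower and Mylip higher, and 4 transport genes were higher and 2 lower, Npc2 being the second. Over all genes 7.6% were then higher and 22.6% lower in ApoE KO. With WT library 8 as the only WT library, a comparison in which it is assumed to vary as the ApoE KO libraries do, 1 synthesis gene was lower (Hsd17b7), no regulator was called and 2 transport genes were higher (Abcg1 and Npc2), where 5.28% of all genes were called in either direction. The test used mattered too. EdgeR kept Hsd17b7 alone of the synthesis genes, with the 2 regulators and the 4 higher transport genes, and called 15.9% of all genes. DESeq2 lacked Sc5d and Stard4 of the 12 and called 22.1%. Array weights had Fdft1 in place of Ebp, Mylip besides the 2 regulators and no Npc1, and called 23.4%. After quantile rescaling, which called 18.7%, the synthesis genes were Hmgcs1 and Sc5d (lower) and Dhcr7 (higher), the regulators Srebf2 (lower) and Mylip (higher), and the transport genes the 4 higher ones.

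Other genes of the pathway were drawn from lists of 49 genes, of which 41 reached the filter. Of these, 5 were higher and 8 lower in ApoE KO, beside 5.14% and 19.8% of all genes tested. Without WT library 8 these counts were 6 and 11, and against that library alone 1 (Rxrb) and 0. Of 14 further SREBP targets tested, 6 were lower and 0 higher. The fatty acid genes Scd1, Scd2, Acaca and Elovl6 were among them, with differences of -5.87, -1.75, -4.72 and -3.12. Elovl6, an elongase, was not called after quantile rescaling (difference -0.27, adjusted p = 0.811), with edgeR (adjusted p = 0.302) or with DESeq2 (adjusted p = 0.18). Other genes of fatty acid and lipid synthesis in the list did not pass: Fasn (-0.94), Fads1 (-0.45), Elovl5 (-0.35), Acly (-0.079) and Lpin1 (0.51). Without WT library 8, Fasn and Elovl5 were called lower and Lpin1 higher (adjusted p 0.0386, 0.0441 and 0.0364, limma), and against that library alone no SREBP target of the list was called.

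Of 7 genes of SREBP processing and degradation, 2 were higher and 0 lower, beside 5.14% and 19.8% of all genes tested. Rnf139, a ligase of the endoplasmic reticulum that acts on the SREBP machinery, had 204, 182, 204 and 183 in ApoE KO, against 64.0, 75.4 and 119 in WT, with no overlap (difference 1.25, SE 0.23, adjusted p = 0.00117, limma). Erlin1, a scaffold that binds cholesterol there, had a difference of 1.45 (SE 0.46, adjusted p = 0.0324, limma), a call that ended without WT library 1, 3, 4 or 6 or ApoE KO library 1 or 3 (adjusted p up to 0.0856) and with array weights (adjusted p = 0.0913). Of 6 LXR partners and further targets, 1 was higher, the partner receptor Rxrb (difference 0.84, SE 0.25, adjusted p = 0.0272, limma), which was not called without ApoE KO library 1 (adjusted p = 0.0777) or with array weights (adjusted p = 0.0878). Smpdl3a, an LXR target of the same list, did not pass (difference -1.36, adjusted p = 0.159, limma). It was called lower without WT library 8 (difference -1.90, adjusted p = 0.00073, limma) and with DESeq2 (adjusted p = 0.0216). Array weights, which give WT library 8 a weight of 0.21, also called it lower (adjusted p = 0.00372, limma). Of 12 further sterol transfer and ester hydrolysis genes, Stard3 and Scarb2, both of the lysosomal membrane, were higher (differences 0.59 and 0.51), and Gramd1b, which carries sterol from the plasma membrane, and Nceh1, a cholesteryl ester hydrolase, were lower (-1.82 and -1.79). Without ApoE KO library 1 or 2 neither Stard3 nor Scarb2 was called (adjusted p up to 0.0596 for Stard3 and 0.0859 for Scarb2), and Scarb2 also lost its call without WT library 7 and after quantile rescaling (adjusted p = 0.0738), whereas Gramd1b and Nceh1 kept theirs in each fit with 1 library left out. Neither of the 2 oxysterol enzymes tested passed.

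After injection of APOE protein into ApoE KO brain, no sterol gene passed. Of 20 members tested, 0 were called by limma, beside 34 of 7066 genes, or 0.481%. At an unadjusted p under 0.05 limma gave 3 members, Hsd17b7, Mylip and Lipa, where 11.2% of all genes were under it. EdgeR called 0 members, beside 0.34% of all genes, and DESeq2 called 0 of the 11 to which it gave an adjusted p, beside 3.14%. With array weights Hsd17b7 was called, as were 3.74% of all genes. These weights were 1.74 to 2.95 for libraries 4 and 5 of both groups and 0.367 to 0.849 for libraries 1 to 3. Calls made with them therefore rest mainly on libraries 4 and 5. Tested were 8 synthesis genes, 5 regulators and 7 transport and efflux genes, with median differences of -0.05, -0.78 and -0.17, beside -0.01 for all genes. The 13 members under the filter, among them Insig1, Srebf2 and Stard4, which were lower in ApoE KO than in WT, ranged from 0 to 41.2 in rAPOE and 0 to 32.3 in PBS libraries. Microglial markers summed to 10299 to 21467 in rAPOE and 18894 to 23462 in PBS; of the 6, P2ry12 was lower in rAPOE (difference -1.77, adjusted p = 0.00663, limma) and the others did not pass; it missed the threshold without library 5 of both groups (difference -1.54, adjusted p = 0.0543) and with edgeR (adjusted p = 0.0651). Choroid plexus and ependymal markers summed to 0 to 512 in rAPOE and 0.827 to 267 in PBS. The part of these cells in the values below was not tested.

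**Figure D3:**
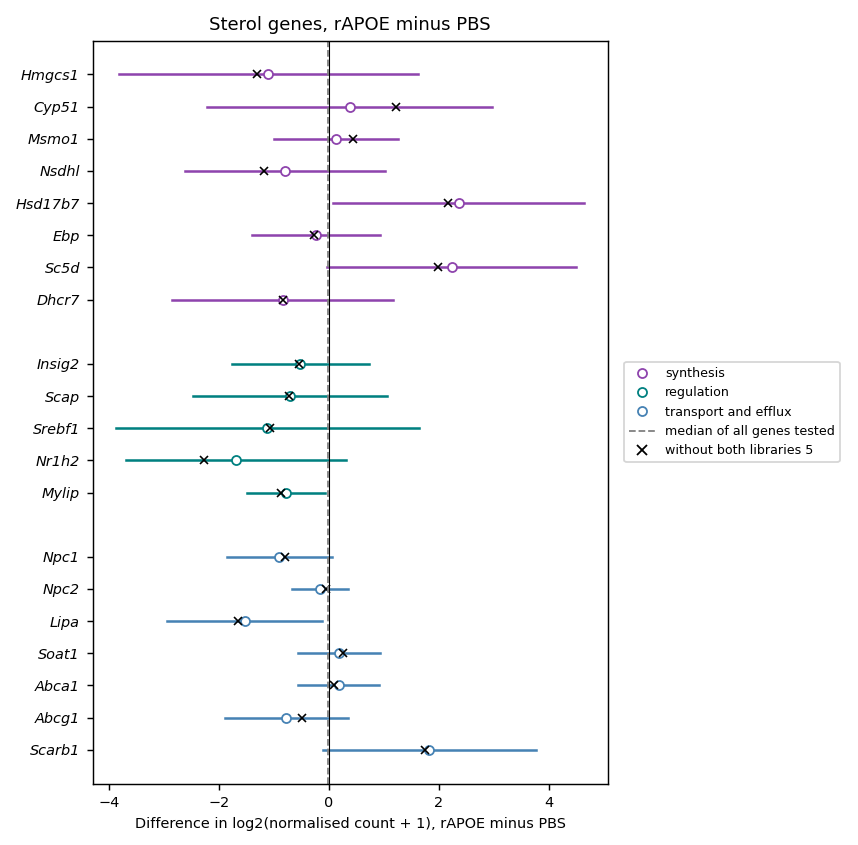
Difference in log2(normalised count + 1), rAPOE (n = 5) minus PBS (n = 5), for the 20 tested members by role; bars are 95% confidence intervals, open circles did not pass, crosses are the fit without library 5 of both groups and the dashed line is the median of all genes tested, -0.01. No circle is filled, and the intervals of Hsd17b7, Mylip and Lipa clear 0 before adjustment.

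Hsd17b7 and Sc5d, of the late synthesis steps, had the widest differences of the 20 members after the protein. Hsd17b7 had 17.7, 13.1, 6.02, 22.5 and 35.8 in rAPOE libraries 1 to 5, against 13.2, 0, 6.40, 0 and 3.22 in PBS libraries 1 to 5. Libraries 1, 4 and 5 of rAPOE were above every PBS library, and the groups overlapped in the rest. The difference was 2.36 (SE 1.10, 95% interval 0.08 to 4.64, adjusted p = 0.422, limma), and it passed with array weights (difference 3.17, adjusted p = 0.0471). Sc5d had 11.8, 26.2, 20.1, 17.1 and 14.0 in rAPOE, against 0, 1.26, 25.6, 7.90 and 0.644 in PBS. Its rAPOE values were even, while PBS library 3 stood far above the other PBS libraries (difference 2.23, SE 1.08, 95% interval -0.03 to 4.48, adjusted p = 0.456, limma). Nsdhl had 9.43, 47.4, 2.01, 7.76 and 25.6 in rAPOE, against 9.10, 21.5, 49.6, 29.6 and 15.4 in PBS, spread over the same range (difference -0.81, SE 0.88, 95% interval -2.62 to 1.01, adjusted p = 0.781, limma). Hmgcs1, Cyp51, Msmo1, Ebp and Dhcr7 had differences between -1.10 and 0.38 with adjusted p from 0.797 to 0.957 (limma). Signs of these changed easily: Cyp51 was below 0 without PBS library 2 (-0.39) or rAPOE library 1 (-0.27), Msmo1 without PBS library 1 or 3 or rAPOE library 3, and Ebp above 0 without rAPOE library 4 (0.17).

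All 5 regulators tested had a difference below 0, and none passed. Mylip had 95.5, 325, 272, 258 and 204 in rAPOE libraries 1 to 5, against 597, 205, 506, 394 and 277 in PBS libraries 1 to 5. The highest values were of PBS and the lowest was rAPOE library 1, with an overlap between 204 and 325. The difference was -0.78 (SE 0.34, 95% interval -1.49 to -0.08, adjusted p = 0.395, limma), and -0.87 without library 5 of both groups (adjusted p = 0.509). Nr1h2 had 8.25, 0, 13.0, 24.1 and 20.2 in rAPOE, against 88.5, 48.0, 9.60, 36.9 and 12.9 in PBS (difference -1.69, SE 0.96, 95% interval -3.69 to 0.31, adjusted p = 0.528, limma). Insig2 had 22.4, 35.3, 15.1, 33.4 and 21.0 in rAPOE, against 33.1, 75.9, 16, 47.4 and 27.7 in PBS (difference -0.52, SE 0.60, 95% interval -1.76 to 0.73, adjusted p = 0.798, limma). Both overlapped widely. Scap and Srebf1 had differences of -0.71 and -1.12, with adjusted p of 0.806 and 0.804 (limma).

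Of the transport and efflux genes, Lipa had 2.36, 27.2, 24.1, 23.3 and 34.2 in rAPOE, against 34.8, 83.4, 65.6, 27.7 and 70.8 in PBS. The rAPOE values were low, library 1 most of all, and met PBS only between 27.7 and 34.2. The difference was -1.53 (SE 0.68, 95% interval -2.94 to -0.12, adjusted p = 0.405, limma). Npc1 had 21.2, 42.4, 118, 88.5 and 49.0 in rAPOE, against 73.6, 168, 60.8, 121 and 122 in PBS (difference -0.90, SE 0.46, 95% interval -1.85 to 0.05, adjusted p = 0.49, limma). Scarb1 had 54.2, 43.4, 33.1, 24.1 and 20.2 in rAPOE, against 23.2, 0, 17.6, 35.6 and 3.86 in PBS (difference 1.82, SE 0.93, 95% interval -0.11 to 3.76, adjusted p = 0.489, limma). The groups overlapped for both.

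The export pumps that were higher in ApoE KO than in WT did not differ detectably after the protein. Abca1 had 119, 353, 332, 376 and 330.3 in rAPOE, against 369.8, 126, 197, 433 and 236 in PBS. One library of each group was near 120 and the rest lay between 197 and 433. The difference was 0.18 with a 95% interval of -0.56 to 0.91 (adjusted p = 0.89, limma), and it was -0.065 without PBS library 2. Abcg1 had 50.7, 35.3, 12.0, 43.5 and 28.8 in rAPOE, against 62.9, 37.9, 30.4, 53.3 and 112 in PBS, a difference of -0.78 with a 95% interval of -1.90 to 0.34 (adjusted p = 0.62, limma); the highest value was PBS library 5, one of those at odds with its labelled sex, and without library 5 of both groups the difference was -0.49 (adjusted p = 0.866). Npc2 and Soat1 had differences of -0.17 and 0.18, with adjusted p of 0.844 and 0.889 (limma), and Soat1 changed sign without PBS library 4. Of the other pathway genes, 0 of 28 tested passed by limma, beside 0.481% of all genes. By limma 3 of them were under an unadjusted p of 0.05, where 11.2% of all genes were. One was Ch25h, an enzyme that makes an oxysterol, at 58.9, 374, 60.2, 124 and 504 in rAPOE, against 57.1, 111, 81.6, 10.5 and 5.79 in PBS (difference 2.20, SE 0.72, adjusted p = 0.225, limma). Its groups overlapped, and without library 5 of both groups the difference was 1.20 (adjusted p = 0.613). With array weights Ch25h was called higher (difference 3.54, adjusted p = 0.000158, limma) and Gramd1b lower (difference -2.09, adjusted p = 0.0341, limma). That fit leans on libraries 4 and 5, where Ch25h had 124 and 504 in rAPOE and 10.5 and 5.79 in PBS.

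**Figure D4:**
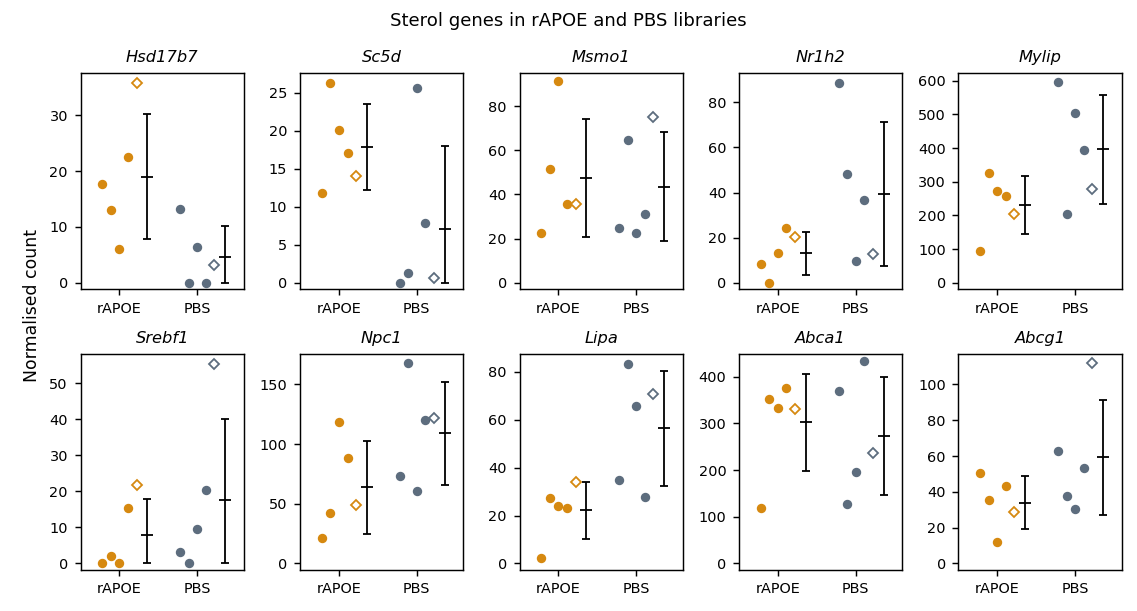
Normalised count in each library for 10 members, rAPOE (n = 5, orange) left of PBS (n = 5, grey), with the mean and SD beside each group, the lower bar ending at 0 where it would go under it; the open diamond is library 5 of each group, and each panel has its own linear axis from 0. The groups overlap in every panel, most narrowly for Lipa, at 2.36 to 34.2 in rAPOE and 27.7 to 83.4 in PBS.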

How the data were processed

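QuantSeq 3′ FWD libraries, from total RNA of isolated microglia, tag the 3′ end of polyadenylated transcripts; they were sequenced on a MiniSeq, per the labels' protocols. Tools named, with no role or order, per the submitters' processing notes are R 3.2.3, Picard 1.8.4, DESeq2 and HTSeq, with GRCm38.p3 as the genome. Not given in the sources used here: aligner, annotation and strand setting. Each deposited value is a signal per gene, called the normalised count: reads divided by a factor for each library, each of the 2 tables normalised apart, so that no test spans both. In all 21 libraries 100% of the values above 0 were whole multiples of 1 step within 0.01, which gave the reads behind each value; the reads carry no molecular identifiers, so the floor of 3 reads covers counting error only. Left out of the genotype table were 22 entries that carry dates in place of gene names (0.0966% of the summed values) and 120 entries at 0 in every library.

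Genes with a mean of at least 10 were fitted with limma 3.58.1 (R 4.3.3, lmFit, and eBayes with an intensity trend) on log2(normalised count + 1), with Benjamini-Hochberg adjustment over all genes of a table. This scale can understate or overstate the change of low genes. For Hsd17b7, at 0 in every ApoE KO library, the difference was narrower than edgeR's (-4.72 beside -8.20). It was wider for members at 0 in part of the ApoE KO libraries, such as Sc5d (-2.86 beside -1.45) and Stard4 (-3.18 beside -1.92). Steps were tested on simulated data. Alternatives were pseudocounts of 0.5 and 5, no filter, a mean of at least 50, quantile rescaling, TMM scaling, edgeR 4.0.16 and DESeq2 1.42.0 on the recovered reads, a replicate block, array weights, and leaving out libraries; the comparison with WT library 8 alone was added after seeing the data. Values in every library are given for members that passed and for the 3 with the lowest p in each role among those that did not. The members and lists were chosen with earlier results of these data known. Positions come from GENCODE M21 for GRCm38, and promoter windows from RefSeq for GRCm38.p6. Some genes of the further lists are counted but not reported here by name.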

Additional observations from a re-analysis of the deposited data

Results flagged for a closer look

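Of 100 combinations of member and group checked for a library far from the others of its group, 13 stood out, where chance alone gives about 1 in 20. WT library 8 accounted for 7. It was lowest among the WT libraries for Hmgcs1 (209, the others 261 to 305), Mvd (9.03, the others 37.1 to 77.0), Srebf1 (9.03, the others 27.8 to 57.2), Srebf2 (37.9, the others 99.99 to 138) and Npc2 (1426, the others 4664 to 5229). It was highest for Mylip (1025, the others 202 to 304) and Abca1 (771, the others 233 to 339). ApoE KO library 1 accounted for 3, being lowest for Nr1h2 (5.11, the others 59.6 to 71.8) and highest for Stard4 (21.6, the others 0) and Npc2 (3991, the others 3189 to 3195). In the injection table, rAPOE library 1 was lowest for Lipa (2.36, the others 23.3 to 34.2) and Abca1 (119, the others 330.3 to 376), and PBS library 4 was lowest for Dhcr7 (13.2, the others 17.7 to 19.9).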

How the results depend on the processing

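The genotype counts were 5 synthesis genes lower, 2 regulators lower, and 4 transport genes higher and 1 lower, with 535 genes higher and 2061 lower over the whole table. Quantile rescaling, which moved the median of all genes from -0.45 to 0.09, gave 1 synthesis gene higher (Dhcr7) and 2 lower, 1 regulator higher (Mylip) and 1 lower, 0 transport genes lower, and 920 genes higher and 1027 lower in all. At a mean of at least 50 the lower counts were 2, 1 and 0, and 801 in all, with fewer genes tested; with no filter 3191 were lower in all, Lss and Nr1h3 among them, and a pseudocount of 5 added Pmvk to the lower synthesis genes. EdgeR gave 1 synthesis gene, 0 transport genes and 1159 genes in all as lower, and DESeq2 gave 0 transport genes. Array weights called 1 regulator higher. With single libraries left out, lower synthesis genes ranged from 1 to 7, higher regulators from 0 to 1 and lower transport genes from 1 to 2. Against WT library 8 alone, 1 synthesis gene and 0 regulators were lower, 2 transport genes were higher and 0 lower, and 100 genes were higher and 449 lower in all. Elsewhere the cause of these shifts was not tested.

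Signs turned in the comparison with WT library 8 alone for Mvd (0.51), Msmo1 (0.029), Insig2 (-0.13), Nr1h2 (0.21), Mylip (-0.76) and Npc2 (1.24), after quantile rescaling for Nsdhl (0.35) and Acat2 (0.17), and with single libraries left out for Nsdhl (-1.67 to 0.27), Insig2 (-0.041 to 0.46), Nr1h2 (-0.86 to 0.33), Scarb1 (-2.07 to 0.11) and the median of the regulators (-0.62 to 0.19). None of these had passed.

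In the injection table array weights called 1 synthesis gene higher, Hsd17b7; other settings called 0 members. Over all genes the 26 higher and 8 lower became 47 and 17 at a pseudocount of 5, 45 and 22 after quantile rescaling, 66 and 48 with DESeq2, 137 and 127 with array weights, 13 to 36 and 2 to 38 with single libraries left out, and 10 and 1 without both libraries numbered 5; lower genes were 16 at a mean of at least 50 and 1 with edgeR. The synthesis median turned to 0.30 with no filter, 0.063 with edgeR, 0.072 with DESeq2, 0.079 without both libraries numbered 5 and -0.32 to 0.11 with single libraries left out, and the transport median to 0.0054 with no filter or at a mean of at least 50, which left no synthesis gene. Signs also turned with array weights for Hmgcs1 (0.16), Cyp51 (-0.11) and Msmo1 (-0.0033), with edgeR (0.017) and DESeq2 (0.031) for Ebp, and with single libraries left out for Cyp51 (-0.39 to 1.24), Msmo1 (-0.14 to 0.37), Ebp (-0.53 to 0.17), Soat1 (-0.041 to 0.41) and Abca1 (-0.065 to 0.48).

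Replicate numbers were not taken as pairs: deviations of same-numbered libraries correlated at 0.0134, -0.0295, 0.02 and -0.0103 in the genotype table, and in the injection table at 0.0208, 0.00568 and -0.00418 for numbers 1 to 3, 0.185 for number 4 and 0.112 for number 5, whose rAPOE and PBS libraries stood apart from the first 3. The block takes up that split. With the replicate block, 1 synthesis gene was lower, 2 regulators were lower (Insig1 and Srebf2) and 1 was higher (Mylip). Of the transport genes 2 were higher (Abca1 and Abcg1, not Npc1 or Lipa), and Npc2 was lower in place of Stard4. Over all genes of the genotype table, 374 were then higher and 1449 lower. Of the further genes, Erlin1, Stard3, Scarb2 and Elovl6 were not called. Over all genes of the injection table, 17 were lower.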
